A study of Mus musculus with 50 samples.

Results

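Imprinted genes were described across early mouse embryos injected with mRNA for the homeobox protein DUXBL. The 41 genes were taken by name as a panel of well-known imprinted loci, and 40 of them were found among the 35750 genes of the deposited table (Mkrn3 had no row). Embryos came from matings of C57BL6/J females of 3 to 12 weeks, superovulated with hormones, with C57BL6/J males, and no genotype other than this wild-type strain was used. At 24 h after the hormone hCG, zygotes received 200 ng/µl of an mRNA for V5-tagged DUXBL joined through a 2A peptide to nuclear mCherry (Duxbl embryos), 200 ng/µl of an mRNA for nuclear mCherry alone (mCherry embryos), or no injection (uninjected embryos). Each library was made from a tube of 5 embryos. Collection was at 28 to 30 h after hCG, when embryos are late 1-cell embryos (late 1C), at 32 h for early 2-cell embryos (early 2C), and at 48 h for late 2-cell embryos (late 2C). The 9 groups held 6 uninjected and 6 mCherry libraries at each stage, and 4 Duxbl libraries at late 1C, 5 at early 2C and 5 at late 2C. The labels do not say whether tubes of a group came from separate females or days, so p-values measure the spread between tubes only.

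An imprinted gene is transcribed mainly from the copy inherited from 1 parent, because the egg and the sperm leave different marks on it. The marks are DNA methylation at imprinting control regions, kept after fertilization by the zinc finger proteins ZFP57 and ZFP445 with TRIM28 and SETDB1, or, at a smaller set of genes, the histone mark H3K27me3 laid down in the oocyte. Transcripts in a 1-cell embryo are largely a store made in the oocyte, most of that store is destroyed by the late 2-cell stage, and the embryo's own genome is switched on over the same time. The libraries give the total level of each transcript, with no reads assigned to a parent, so that stored and embryonic transcripts and the 2 parental copies were not separated. Because each library is a pool of whole embryos, fewer cells with a transcript and less transcript per cell cannot be told apart.

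Promoter sequences are shown for the members whose level at late 2C differed most between Duxbl and mCherry embryos (by at least 2.5 on the log2 scale) and that have a single start in RefSeq's annotation of the GRCm38.p6 build. The 250 bases before the annotated start are given 5′ to 3′ on the plus strand, on which all 5 genes lie, and capitals mark the hexamer TGCCGC, the core of the motif bound by ZFP57. Mcts2 (chr2:152686898-152687147) and Zrsr1 (chr11:22971755-22972004) were far lower in Duxbl embryos, whereas Dlk1 (chr12:109452573-109452822), Slc22a18 (chr7:143473539-143473788) and Rian (chr12:109603695-109603944) were far higher. Gnas, with the largest increase, has 4 starts in that table and is not shown.
Mcts2: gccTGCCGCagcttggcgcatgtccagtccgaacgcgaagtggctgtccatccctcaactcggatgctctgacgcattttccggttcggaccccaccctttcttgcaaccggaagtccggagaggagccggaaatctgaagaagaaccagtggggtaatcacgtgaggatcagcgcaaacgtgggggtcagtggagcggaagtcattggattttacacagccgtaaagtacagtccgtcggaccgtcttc
Zrsr1: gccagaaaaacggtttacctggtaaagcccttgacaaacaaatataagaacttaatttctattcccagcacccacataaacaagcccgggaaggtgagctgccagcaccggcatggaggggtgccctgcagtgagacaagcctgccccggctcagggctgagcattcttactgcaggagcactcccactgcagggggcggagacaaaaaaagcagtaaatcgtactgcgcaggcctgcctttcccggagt
Dlk1: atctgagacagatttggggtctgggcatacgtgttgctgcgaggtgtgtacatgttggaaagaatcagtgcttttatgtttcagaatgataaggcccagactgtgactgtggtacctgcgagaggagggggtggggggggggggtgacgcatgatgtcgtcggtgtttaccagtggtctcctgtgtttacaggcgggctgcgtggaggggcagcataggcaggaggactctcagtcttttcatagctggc
Slc22a18: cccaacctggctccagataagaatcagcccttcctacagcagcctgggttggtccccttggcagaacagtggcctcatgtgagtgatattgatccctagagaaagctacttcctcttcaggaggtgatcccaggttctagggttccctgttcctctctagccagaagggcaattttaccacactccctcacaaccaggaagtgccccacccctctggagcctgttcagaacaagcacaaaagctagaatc
Rian: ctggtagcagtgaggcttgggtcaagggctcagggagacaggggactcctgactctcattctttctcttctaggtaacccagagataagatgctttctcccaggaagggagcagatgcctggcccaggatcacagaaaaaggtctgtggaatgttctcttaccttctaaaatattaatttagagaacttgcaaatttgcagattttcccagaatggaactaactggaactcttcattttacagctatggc
The Mcts2 window held 1 TGCCGC and 20 CpG dinucleotides, and the other 4 windows held no copy of the hexamer on either strand. Of the 51 RefSeq promoters that matched 34 members, 15.7% held TGCCGC or its reverse complement GCGGCA, and 8.70% of all 32851 promoters did. The median number of CpG dinucleotides was 10 in the members' windows and 6 in all promoters. A match is a match of letters and says nothing of binding.

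The deposited values summed to 12.04 to 22.53 M in the late 2C libraries and to 22.3 to 26.96 M in those of the 2 earlier stages. At late 2C the sums were 12.04 to 18.21 M in uninjected, 12.76 to 18.75 M in mCherry and 18.77 to 22.53 M in Duxbl embryos. The Duxbl sums thus lay above all others of that stage. Levels below are in CPM, here the deposited value divided by the scaled library total in M, and differences are in log2(CPM + 1), so that changes of weakly expressed genes come out too small. A difference was called at a limma adjusted p under 0.05. The injected gene, listed as Duxbl1, read 1410 to 4799 CPM in the 14 libraries of Duxbl embryos and 82.4 to 634.8 CPM in the other 36. Libraries numbered 4 and 5 stood apart from the others at every stage, and on the first principal component of the deviations from group means none of their scores overlapped the rest. Both numbers were present in every group except the Duxbl embryos at late 2C, which held library 4 and no library 5. At late 1C they were a larger part of the 4 Duxbl libraries than of the 6 mCherry ones. The Duxbl libraries were numbered 4 to 7 at late 1C, 3 to 7 at early 2C, and 1, 3, 4, 6 and 7 at late 2C. Values listed for each Duxbl library follow that order. In Duxbl embryos at late 2C, library 4 alone had Zrsr1 and Igf2r at the mCherry level. The late 2C differences of both genes and the members' split are also given without it. The medians and the differences of differences include it. The cDNA and library kits do not keep the strand of the RNA, so reads of a member and of a gene overlapping it on the other strand cannot be told apart.

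**Figure D1:**
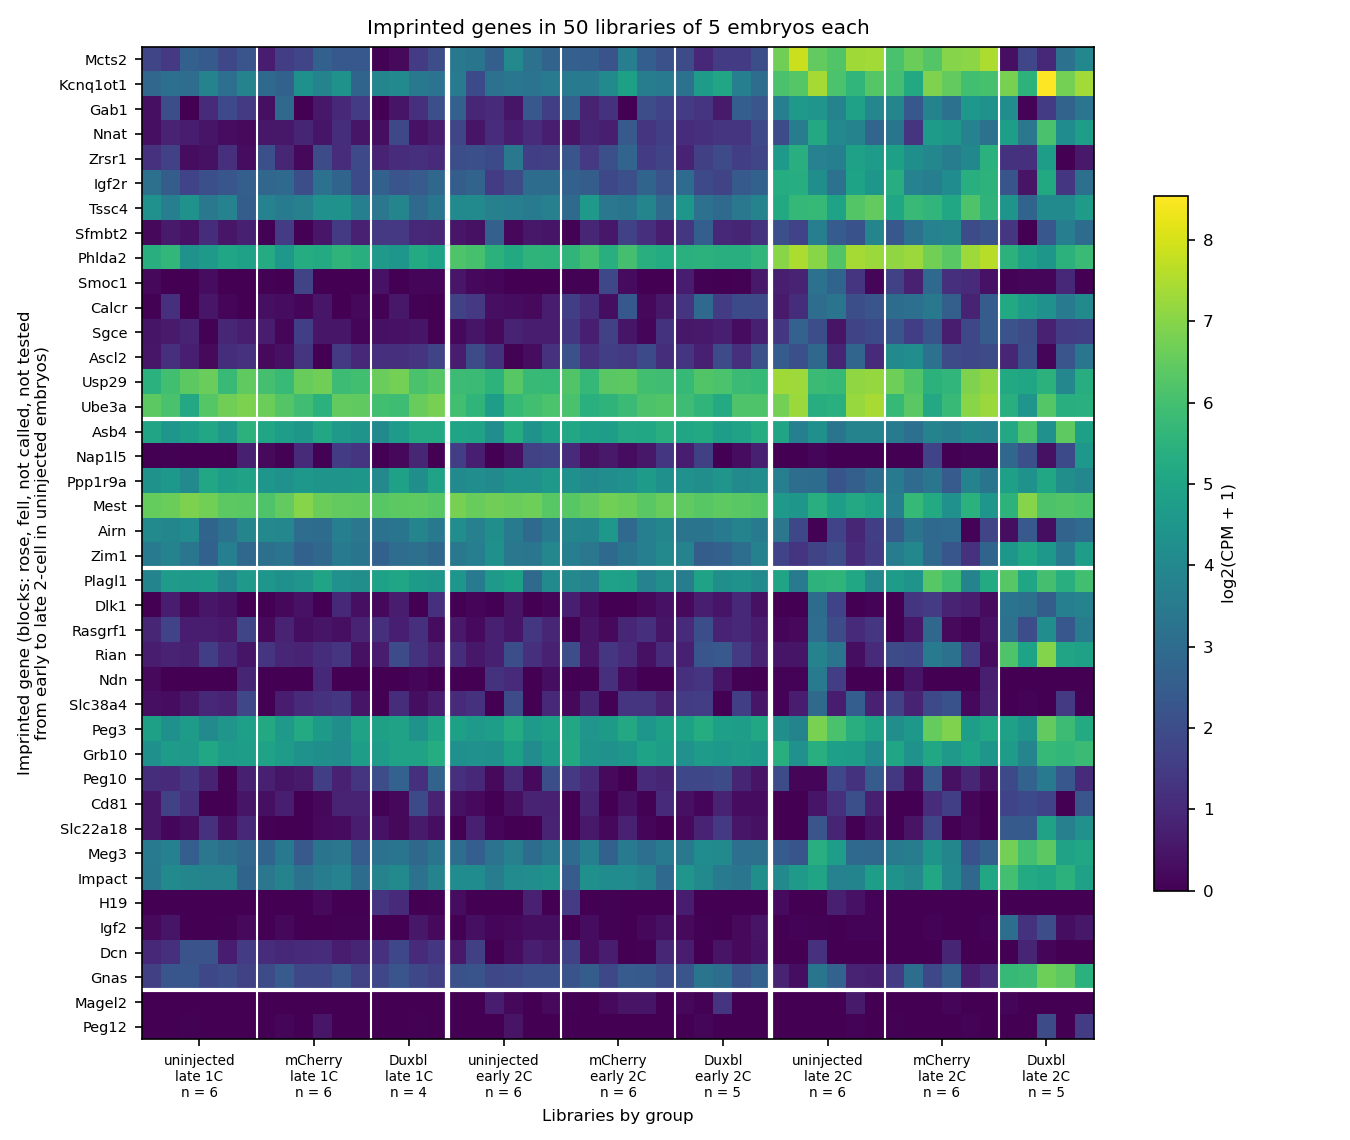
Level of each imprinted gene found in the table (rows) in each of the 50 libraries (columns), as log2(CPM + 1), with libraries grouped by stage and treatment. Rows are in blocks by the call for late 2C against early 2C in uninjected embryos (15 rose, 6 fell, 17 were not called, 2 were not tested), and the last 5 columns, the Duxbl embryos at late 2C, are low for Mcts2 and, except library 4, for Zrsr1, and high for Gnas, Rian and Meg3.

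In uninjected embryos 21 of the 40 members were already present at late 1C at a mean of at least 1 CPM, 27 were at early 2C and 32 were at late 2C. Per kilobase of exon, the highest levels at late 1C were those of Phlda2 (28.7 CPM per kb) and Mest (24.2), followed by Asb4 (7.61) and Tssc4 (7.02). Phlda2 and Mest differed by less than their spread between tubes, as did Asb4 and Tssc4. At late 2C the order was Mcts2 (149.7 CPM per kb), Phlda2 (123.8), Tssc4 (30.0) and Nnat (7.59), with Mest at 7.38. The first 2 of these also differed by less than their spread. H19, the maternally expressed noncoding RNA beside Igf2, stayed below 1 CPM on average in all 9 groups, as did Magel2 and Peg12 of the Prader-Willi region.

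Between late 1C and early 2C no member passed the test, at 0 of 38 members tested against 2.93% of all 28808 genes (1.12% higher and 1.81% lower). At an unadjusted p under 0.05 there were 5 (Dcn, Mcts2, Nap1l5, Phlda2 and Zrsr1). A fit of the 2 groups alone called 2 of 29 members higher, beside 519 higher and 1081 lower of 18323 genes. Between early and late 2C, 15 members rose and 6 fell, or 55.3% of the 38 tested against 56.9% of all genes (30.3% higher and 26.6% lower). The members' median difference was 0.46 and that of all genes was 0.02. In 11 of the 21 members called, the early and late 2C libraries did not overlap, and among all genes called 59% did not. Of all genes tested 33.9% did not overlap, beside 11 of the 38 members. Under scaling by library totals the median of all genes moved to 0.15 and the members' split became 18 higher and 5 lower. That of all genes became 9985 higher and 6379 lower. Markers of other cell types moved over the same time. The summed level of 5 oviduct epithelium markers was 2.55 to 9.98 CPM at early 2C and 39.98 to 156 CPM at late 2C (2 higher of 4 tested, Epcam and Ovgp1, with none at 0 in all libraries). That of 9 cumulus and granulosa markers went from 54.7 to 76.3 CPM, with Inha and Pgr at 0, to 7.48 to 25.2 CPM, with 3 higher and 3 lower of 8 tested. Sperm markers, 6 in all, summed to 14.2 to 20.6 CPM and then to 1.85 to 6.35 CPM, with 2 higher and 2 lower of 5 tested. Of 2 blood markers, Hba-a1 was higher, and their sum went from 0.3902 to 1.47 CPM to 7.03 to 24.4 CPM. Their part in the members' changes was not tested. Of the 21 members detected at late 1C, 8 were higher at late 2C than at late 1C, 6 were lower and 7 were not called. In that comparison 58.3% of all genes were called, 30.6% as higher and 27.7% as lower. Of the 19 members below 1 CPM at late 1C, 7 were higher at late 2C, 10 were not called and 2 were not tested. The late 1C libraries that sorted them also enter the comparison. On the log2(CPM + 1) scale these members had little room to fall, so the absence of falls among them is no result.

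The transcripts that fell came from genes of several roles, namely Mest, Ppp1r9a, Zim1, Airn, Asb4 and Nap1l5. Mest, a paternally expressed hydrolase gene linked to growth, lay between 78.8 and 109 CPM (median 97.7) at early 2C and between 22.2 and 39.6 CPM (median 27.8) at late 2C. All 6 late libraries lay below all early ones, and the difference was -1.72 (SE 0.21, adjusted p = 9.62e-10). At late 1C Mest was already at 95.5 ± 13.6 CPM (SD, n = 6), and the step from late 1C to early 2C was not called.
Ppp1r9a, which encodes the actin-binding scaffold neurabin I, lay at 15.6 to 23.7 CPM (median 18.3) at early 2C and 3.62 to 11.6 CPM (median 7.11) at late 2C. The 2 stages did not overlap (difference -1.35, SE 0.22, adjusted p = 6.71e-07). Zim1, a maternally expressed zinc finger gene, lay at 9.19 to 18.5 CPM (median 10.7) and then at 1.05 to 3.05 CPM (median 2.04). It showed the largest fall of the 6 (-2.13, SE 0.31, adjusted p = 4.66e-08), again with no overlap. In mCherry embryos Zim1 lay at 6.54 to 15.4 CPM at early 2C and at 1.32 to 14.5 CPM at late 2C, which overlapped. Stage changes within mCherry embryos were not tested.
Airn, the paternally expressed noncoding RNA that lies across Igf2r and silences it in later tissues, lay at 6.56 to 18.2 CPM (median 11.3) at early 2C and 0.0450 to 9.39 CPM (median 2.15) at late 2C. The highest late library lay inside the early range, and the difference was -2.10 (SE 0.44, adjusted p = 4.55e-05). Asb4, which encodes a subunit of a ubiquitin ligase, lay at 17.4 to 38.3 CPM (median 28.7) and then at 8.77 to 30.9 CPM (median 13.1). Its fall (-0.79, SE 0.26, adjusted p = 0.00825) was no longer called under scaling by library totals (-0.41, adjusted p = 0.191). Nap1l5, a paternally expressed gene of the nucleosome assembly protein family, was near 0 throughout (1.26 CPM on average at early 2C and 0.0150 at late 2C). It averaged 0.122 CPM at late 1C and was not called between late 1C and late 2C (-0.12), so its fall is from the early 2C level only. Dcn, a gene of the extracellular matrix, fell over the longer interval from late 1C (1.95 CPM) to late 2C (0.218 CPM), by a difference of -1.24 (SE 0.27, adjusted p = 9.54e-05).

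The 15 members that rose began from means between 0.110 CPM (Smoc1) and 56.9 CPM (Usp29) at early 2C. Mcts2, a paternally expressed retrocopy of the translation factor gene Mcts1, lay at 5.07 to 15.4 CPM (median 8.67) at early 2C and 74.3 to 230.3 CPM (median 131) at late 2C. Every late library was above every early one, and the difference was 3.77 (SE 0.41, adjusted p = 2.20e-11). Its parent Mcts1 went from 2.93 to 32.6 CPM (difference 2.99), and reads shared by the 2 copies could be assigned to either, so the level of Mcts2 itself is uncertain.
Kcnq1ot1, the paternally expressed noncoding RNA that silences the genes around Kcnq1, lay at 2.82 to 10.8 CPM (median 8.94) at early 2C and 48.6 to 166 CPM (median 72.5) at late 2C. The groups did not overlap, and it rose by 3.17 (SE 0.37, adjusted p = 2.37e-10). Phlda2, a maternally expressed gene that limits placental growth, rose from 35.8 to 71.6 CPM (median 45.1) to 74.2 to 180.4 CPM (median 142), also without overlap (1.41, SE 0.23, adjusted p = 5.81e-07). Tssc4, a small maternally expressed gene of the same region whose product takes part in spliceosome assembly, went from 10.5 to 16.2 CPM (median 12.3) to 29.8 to 88.5 CPM (median 51.3). All its late libraries were again the higher ones (1.92, SE 0.31, adjusted p = 5.43e-07).
Igf2r, the maternally expressed receptor that clears the growth factor IGF2, lay at 1.84 to 7.07 CPM (median 5.15) at early 2C and 8.30 to 38.8 CPM (median 26.0) at late 2C. The 2 stages did not overlap (2.14, SE 0.44, adjusted p = 4.26e-05). Gab1, an adaptor of growth factor receptors and 1 of the 4 members imprinted through H3K27me3, lay at 0.400 to 5.15 CPM (median 1.52) and then at 11.9 to 28.8 CPM (median 17.7). All 6 late libraries were above all early ones (2.74, SE 0.52, adjusted p = 8.92e-06). Of that set of 4, Sfmbt2 and Smoc1 rose too (by 1.87 and 1.35), and Slc38a4 was not called (0.42).
Zrsr1, a paternally expressed retrocopy of a splicing factor gene, lay at 2.03 to 9.75 CPM (median 2.997) at early 2C and 11.98 to 39.9 CPM (median 24.7) at late 2C. Nnat, a paternally expressed membrane proteolipid gene, lay at 0.3905 to 2.48 CPM (median 0.886) and then at 2.84 to 34.6 CPM (median 12.3). Neither gene's stages overlapped, and the differences were 2.40 (SE 0.45, adjusted p = 9.38e-06) for Zrsr1 and 2.58 (SE 0.42, adjusted p = 6.71e-07) for Nnat. Unlike Mcts1, the parent of Zrsr1, Zrsr2, was lower at late 2C than at early 2C (-0.73, SE 0.23, adjusted p = 0.00625).
Usp29, a deubiquitinase gene transcribed divergently from Peg3, was abundant from the start, at 44.6 to 78.2 CPM (median 54.3) at early 2C and 51.4 to 161 CPM (median 142) at late 2C. The stages overlapped (0.91, SE 0.27, adjusted p = 0.00325). In mCherry embryos Usp29 was at 68.3 ± 13.1 and 86.8 ± 38.1 CPM (SD, n = 6), a change that was not tested. Ube3a, the ubiquitin ligase gene of Angelman syndrome, lay at 26.6 to 68.4 CPM (median 56.1) and then at 39.2 to 172 CPM (median 127). It overlapped too (0.88, SE 0.33, adjusted p = 0.0210), and was not called on the deposited scale (0.70, adjusted p = 0.0697). Calcr, the calcitonin receptor gene, rose from 0.855 ± 0.863 to 4.09 ± 3.26 CPM (SD, n = 6), a difference of 1.29 (SE 0.39, adjusted p = 0.00426) that fell to 0.51 (adjusted p = 0.377) without libraries 4 and 5. Ascl2 and Sgce, a transcription factor gene of the placenta and a sarcoglycan gene, rose at levels below 10 CPM (by 1.12 and 1.18). Ascl2 was not called without libraries 4 and 5 (1.07, adjusted p = 0.0759).

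Several abundant members neither rose nor fell by the test. Impact was at 12.01 CPM at late 1C, 16.3 CPM at early 2C and 20.3 CPM at late 2C, and only the longest interval was called (0.70, SE 0.31, adjusted p = 0.0455), a call lost in 4 of 8 other settings. Peg3, a paternally expressed zinc finger gene, was at 27.6 ± 5.02 CPM at early 2C and 46.6 ± 37.1 CPM (SD, n = 6) at late 2C (difference 0.39, SE 0.36). Plagl1, a growth-restraining transcription factor gene, was at 17.7 ± 8.16 and 30.3 ± 15.1 CPM (0.70, SE 0.34), and Grb10, an inhibitor of insulin and IGF signalling, at 20.8 ± 4.36 and 28.5 ± 10.5 CPM (0.38, SE 0.24). Peg3 and Plagl1 were among 5 members, with Meg3, Rian and Nnat, for which libraries 4 and 5 of the uninjected and mCherry embryos at late 2C lay above all 8 other libraries. For Peg3 those 4 libraries read 67.0 to 117.8 CPM and the other 8 read 13.4 to 39.9 CPM. Usp29, Phlda2 and Zrsr1 were below all others in the same 4 libraries, at 43.8 to 55.3 against 73.6 to 161 CPM for Usp29. Without libraries 4 and 5 in any group, 13 of 38 members rose and 8 fell between early and late 2C. Among all 30085 genes tested in that setting 8192 rose and 7448 fell.

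Injection itself was checked by comparing mCherry with uninjected embryos. No member was called at any stage, at 0 of 34 tested each time against 0% of all genes, and limma gave 2 members at an unadjusted p under 0.05 at late 1C, 2 at early 2C and 1 at late 2C. A fit of all 9 groups also called no member. The largest difference was that of Zim1 at late 2C (1.24, adjusted p = 1.0), with 1.05 to 3.05 CPM in uninjected and 1.32 to 14.5 CPM in mCherry embryos.

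**Figure D2:**
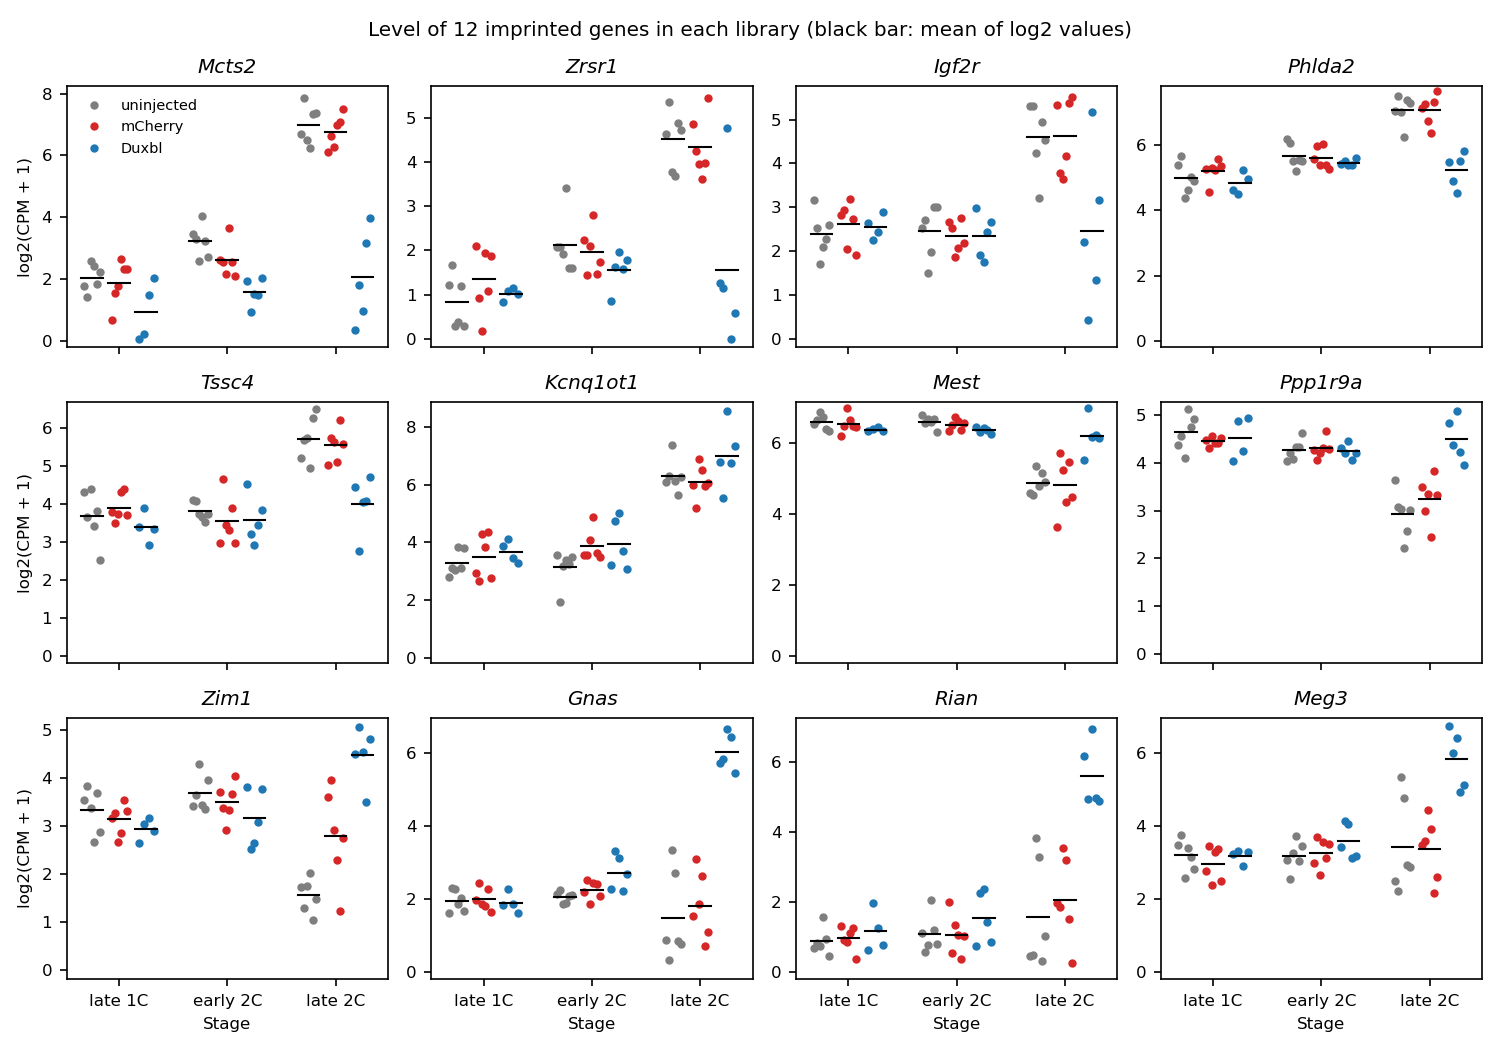
Level of 12 imprinted genes in each library, as log2(CPM + 1), at the 3 stages in uninjected (grey), mCherry (red) and Duxbl (blue) embryos; points are libraries and black bars are means of the log2 values. At late 2C, Mcts2, Zrsr1, Igf2r, Phlda2 and Tssc4 lie lower in most Duxbl libraries than in both control groups, Mest, Ppp1r9a and Zim1 lie higher in most, and Gnas and Rian lie above all control libraries, as Meg3 does above the mCherry ones.

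At late 1C and early 2C, Duxbl and mCherry embryos could not be separated by this test at any member. At late 1C 0 of 34 members were called against 0.0193% of all genes (0.00481% higher and 0.0144% lower), and at early 2C 0 of 34 against 0.42% (0.0283% higher and 0.392% lower). At an unadjusted p under 0.05 there were 4 members at late 1C (Ascl2, Grb10, Mcts2 and Peg10) and 2 at early 2C (Calcr and Mcts2). Mcts2 came closest at early 2C, with 2.89, 0.940, 1.85, 1.84 and 3.14 CPM in the 5 Duxbl libraries and 3.35 to 11.6 CPM (median 4.91) in mCherry embryos. Every Duxbl library was below every mCherry one (difference -1.02, SE 0.31, adjusted p = 0.295). The groups did not overlap in 1 of 34 members tested and in 0.977% of all genes tested. With uninjected embryos as the control 1 of 34 members was called lower, beside 150 lower of 21180 genes. Gnas was at 3.79, 8.87, 7.59, 3.67 and 5.39 CPM in Duxbl embryos at early 2C and at 2.61 to 4.75 CPM in mCherry embryos, which overlapped (0.47, SE 0.24, adjusted p = 1.0).

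At late 2C the members' levels differed widely between Duxbl and mCherry embryos. Of 34 members tested 14 were higher and 7 lower in Duxbl embryos, or 61.8% against 55.9% of all 23052 genes (26.8% higher and 29.1% lower). The members' median difference was 0.79 and that of all genes was -0.05. Under scaling by library totals the median of all genes was -0.26, calls over all genes went from 47.9% to 39.8% higher, and the members' split became 12 higher and 8 lower. Without Duxbl library 4 the split was 13 and 6, with Peg10 and Gab1 no longer called. It was 16 and 7 without libraries 4 and 5 in any group, and 17 and 8 when library number was fitted as a block. Over all genes the splits were, in the same order, 6266 and 6573, 6090 and 6629, and 6269 and 6878. Slc22a18 and Nap1l5 passed the filter on low values only through the Duxbl libraries, where they are high, so that their tests lean on the filter, and 12 higher and 7 lower remain without them. In 12 of the 21 members called, the Duxbl and mCherry libraries did not overlap, and among all genes called at this stage 60.9% did not.

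**Figure D3:**
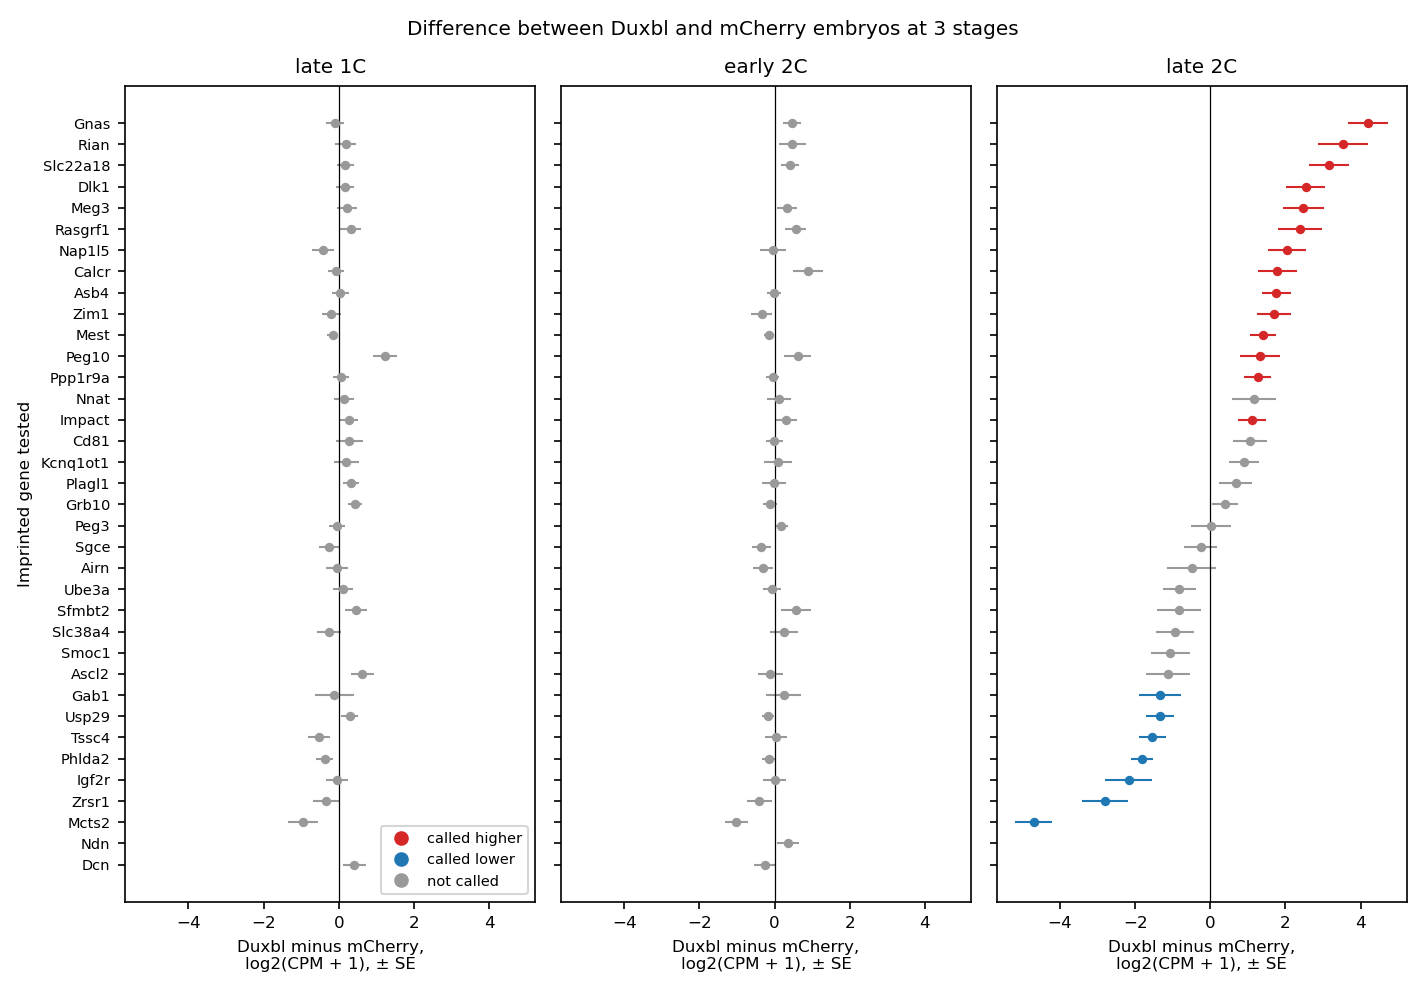
Difference between Duxbl and mCherry embryos in log2(CPM + 1), with its standard error, for each imprinted gene tested at each of the 3 stages, ordered by the difference at late 2C. Red and blue points passed the test as higher and lower, and all of them are in the late 2C panel, where the values run from -4.70 for Mcts2 to 4.20 for Gnas.

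The members are taken below by role, in sets of 3 to 8 tested genes that were not tested against each other. Of 4 long noncoding RNAs tested 2 were higher and none lower, or 50% called beside 55.9% of all genes. Rian, a maternally expressed host of small nucleolar RNAs in the Dlk1-Meg3 cluster, lay at 0.193 to 10.8 CPM (median 2.79) in mCherry embryos and at 72.1, 30.3, 123, 30.8 and 28.8 CPM in the Duxbl libraries. All 5 Duxbl libraries were above all mCherry libraries, and the difference was 3.54 (SE 0.67, adjusted p = 0.000124). Meg3, the long noncoding RNA that begins the same cluster on the maternal copy, lay at 3.48 to 20.6 CPM (median 10.6) in mCherry embryos and at 106, 63.2, 83.7, 29.3 and 34.2 CPM in Duxbl embryos. It too did not overlap (2.47, SE 0.54, adjusted p = 0.000542). Kcnq1ot1 lay at 35.2 to 117 CPM (median 64.1) in mCherry embryos and at 109, 45.2, 372, 107 and 162 CPM in Duxbl embryos, the highest value being that of library 4. The groups overlapped and it was not called (0.90, SE 0.40, adjusted p = 0.0617). Airn lay at 0.0490 to 8.69 CPM (median 5.46) in mCherry and at 0.239, 4.27, 0.245, 5.53 and 6.91 CPM in Duxbl embryos, which overlapped throughout (-0.50, SE 0.65, adjusted p = 0.530). H19 was at 0 in every library of both groups and was not tested.

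Genes of growth signalling went both ways, with 4 higher and 2 lower of 8 tested, or 75% called beside 55.9% of all genes (26.8% higher and 29.1% lower). Gnas, which encodes the stimulatory G protein subunit downstream of hormone receptors, lay at 0.637 to 7.43 CPM (median 2.25) in mCherry embryos. The 5 Duxbl libraries read 51.4, 55.7, 99.0, 85.8 and 42.5 CPM, far above every control library. Its difference of 4.20 (SE 0.54, adjusted p = 9.25e-07) was the largest increase among the members, and it was 4.04 without library 4. Gnas was not called between early and late 2C in uninjected embryos (-0.58, SE 0.35). Its transcripts from several promoters were counted together, and it overlaps the noncoding Gnasas1 by 11117 bases, whose own difference was -0.71 and not called.
Calcr, a receptor that signals through this G protein, lay at 0.784 to 9.93 CPM (median 6.07) in mCherry and at 35.8, 25.2, 19.1, 10.7 and 15.7 CPM in Duxbl embryos. The 2 groups did not overlap (1.79, SE 0.52, adjusted p = 0.00552). Calcr was the only member called both as rising between early and late 2C in uninjected embryos and as higher in Duxbl embryos. That rise lost its call without libraries 4 and 5. Kcnq1ot1 and Nnat also rose, and their positive Duxbl differences (0.90 and 1.16) were not called. Dlk1, a paternally expressed ligand related to the Notch ligands, lay at 0 to 1.84 CPM (median 0.689) in mCherry and at 8.67, 7.93, 4.71, 11.9 and 13.3 CPM in Duxbl embryos. It did not overlap either (2.54, SE 0.52, adjusted p = 0.000256). Rasgrf1, an exchange factor of RAS proteins, was at 1.20 CPM on average in mCherry and 8.76 CPM in Duxbl embryos, with overlap (2.39, SE 0.58, adjusted p = 0.00137).
Igf2r lay at 11.6 to 44.7 CPM (median 28.0) in mCherry embryos and at 3.64, 0.351, 35.2, 1.55 and 7.96 CPM in Duxbl embryos. The value of 35.2 was that of library 4, and the other 4 Duxbl libraries were below all controls. The difference was -2.17 (SE 0.62, adjusted p = 0.00541) with library 4 and -2.84 (adjusted p = 0.000123) without it. Gab1 lay at 4.09 to 22.5 CPM (median 13.6) in mCherry and at 17.4, 0.0502, 1.86, 5.53 and 9.16 CPM in Duxbl embryos. The groups overlapped, and the difference (-1.33, SE 0.56, adjusted p = 0.0484) lost its call without library 4 (-1.12, adjusted p = 0.115) and without library 3 (-0.75, adjusted p = 0.207). Igf2, the growth factor that IGF2R clears, had too low a level to be tested within late 2C, at 0.0168 CPM on average in mCherry embryos and 7.42, 1.355, 3.04, 0.234 and 0.460 CPM in the Duxbl libraries.

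A mixed set of intracellular proteins, from translation and splicing to the cytoskeleton, had 4 higher and 3 lower of 7 tested, or 100% called beside 55.9% of all genes. Mcts2 lay at 67.6 to 181 CPM (median 112) in mCherry embryos and at 0.287, 2.51, 0.980, 8.01 and 14.7 CPM in Duxbl embryos. Every Duxbl library was below every control, and its difference of -4.70 (SE 0.49, adjusted p = 5.62e-08) was the largest decrease among the members. The parent gene Mcts1 differed in the same direction (-4.01, SE 0.37, adjusted p = 9.25e-09), at 36.8 CPM in mCherry and 1.51 CPM in Duxbl embryos, so the share of each copy is uncertain. Phlda2 lay at 81.0 to 198 CPM (median 145) in mCherry and at 43.9, 28.5, 21.8, 44.1 and 55.7 CPM in Duxbl embryos. It did not overlap (-1.83, SE 0.29, adjusted p = 1.41e-05). Tssc4 lay at 31.3 to 72.8 CPM (median 47.3) in mCherry and at 20.5, 5.72, 15.6, 15.7 and 24.9 CPM in Duxbl embryos, all 5 lower than the controls (-1.54, SE 0.36, adjusted p = 0.00083).
Ppp1r9a lay at 4.42 to 13.3 CPM (median 9.14) in mCherry and at 27.8, 19.7, 32.9, 17.7 and 14.5 CPM in Duxbl embryos, which did not overlap (1.26, SE 0.35, adjusted p = 0.00446). Its Duxbl mean was 18.1 CPM at early 2C and 22.5 CPM at late 2C. Impact, a paternally expressed regulator of the stress kinase GCN2, lay at 6.13 to 33.2 CPM (median 17.3) in mCherry and at 63.0, 36.0, 32.4, 43.9 and 28.5 CPM in Duxbl embryos. The groups overlapped (1.10, SE 0.38, adjusted p = 0.0168), and the call was lost without library 1 (0.94, adjusted p = 0.0537) and under scaling by library totals (0.80, adjusted p = 0.0975). Nap1l5 was at 0.401 CPM on average in mCherry embryos and at 6.32, 3.21, 0.294, 2.81 and 22.4 CPM in Duxbl embryos (2.05, SE 0.50, adjusted p = 0.00146). It passed the filter on low values only through the Duxbl libraries, so that its test, counted in this set, leans on the filter. Peg10, a domesticated retrotransposon gene needed in the placenta, was at 1.30 CPM in mCherry and 4.79 CPM in Duxbl embryos (1.32, SE 0.53, adjusted p = 0.0384), a call lost in 14 of 21 other settings.

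Of the 3 tested genes of the ubiquitin system, 1 was higher, 1 lower and 1 not called (66.7% called beside 55.9% of all genes). Usp29 lay at 43.8 to 139 CPM (median 86.5) in mCherry embryos and at 35.2, 32.4, 43.4, 14.3 and 38.6 CPM in Duxbl embryos. All Duxbl libraries were the lower ones, by a narrow margin for library 4 (-1.34, SE 0.38, adjusted p = 0.00459). Asb4 lay at 7.78 to 14.1 CPM (median 12.01) in mCherry and at 34.9, 68.5, 18.9, 85.9 and 28.0 CPM in Duxbl embryos, with no overlap (1.75, SE 0.38, adjusted p = 0.000469). Its Duxbl mean was 32.5 CPM at early 2C and 47.2 CPM at late 2C. Ube3a lay at 34.3 to 152 CPM (median 67.5) in mCherry and at 40.2, 21.03, 77.3, 40.98 and 41.9 CPM in Duxbl embryos. It overlapped and was not called (-0.83, SE 0.44, adjusted p = 0.112).

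Among 6 membrane and transport genes 2 were higher and none lower (33.3% called beside 55.9%). Slc22a18, a maternally expressed organic cation transporter gene, lay at 0 to 2.47 CPM (median 0.0735) in mCherry embryos and at 4.31, 4.37, 29.0, 12.3 and 19.1 CPM in Duxbl embryos. No Duxbl library fell in the control range (3.15, SE 0.52, adjusted p = 2.61e-05). Slc22a18 passed the filter on low values only through the Duxbl libraries, where it is high, so that its test leans on the filter. The second gene called higher was Mest, whose product is a hydrolase of the endoplasmic reticulum. Mest lay at 11.5 to 51.6 CPM (median 28.8) in mCherry embryos and at 44.9, 126, 70.9, 74.1 and 68.9 CPM in Duxbl embryos. Library 1, the lowest Duxbl value, fell inside the control range and the other 4 were above it (1.40, SE 0.35, adjusted p = 0.00167). The Duxbl mean of 76.95 CPM stood beside 81.1 CPM in Duxbl embryos at early 2C. Nnat lay at 1.47 to 25.4 CPM (median 10.99) in mCherry and at 26.8, 9.49, 66.6, 16.7 and 26.6 CPM in Duxbl embryos, which overlapped (1.16, SE 0.59, adjusted p = 0.0994).

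Of 6 genes assigned to transcription and chromatin, with the splicing factor retrocopy Zrsr1 among them, 1 was higher and 1 lower (33.3% called beside 55.9%). Zim1 lay at 1.32 to 14.5 CPM (median 6.13) in mCherry embryos and at 21.7, 32.3, 22.3, 10.3 and 26.9 CPM in Duxbl embryos. Library 6 fell inside the control range and the others were above it (1.70, SE 0.44, adjusted p = 0.00245). The Duxbl mean was 8.60 CPM at early 2C and 22.7 CPM at late 2C. Zrsr1 lay at 11.3 to 42.8 CPM (median 16.3) in mCherry and at 1.39, 1.20, 26.5, 0 and 0.506 CPM in Duxbl embryos. The 26.5 CPM of library 4 lay inside the control range and the other 4 values were below it, and the difference was -2.80 (SE 0.61, adjusted p = 0.000479) with that library and -3.60 (adjusted p = 5.09e-07) without it. Peg3, Plagl1, Sfmbt2 and Ascl2 were not called, with differences of 0.03, 0.67, -0.83 and -1.13. Plagl1 was at 38.9 ± 25.6 CPM (SD, n = 6) in mCherry and 55.1 ± 18.8 CPM (SD, n = 5) in Duxbl embryos.

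The Duxbl difference at late 2C was set beside the normal change, which was measured in other libraries, those of uninjected embryos. Stage changes within mCherry embryos, the control of the Duxbl difference, were not tested. Of the 15 members that rose between early and late 2C in uninjected embryos, 7 were lower at late 2C when Duxbl had been injected (Gab1, Igf2r, Mcts2, Phlda2, Tssc4, Usp29 and Zrsr1), 7 were not called and 1 was higher. Among all 8553 genes that rose and were tested in both, 61.8% were lower and 3.34% higher. Of the 6 members that fell, 5 were higher in Duxbl embryos (Asb4, Mest, Nap1l5, Ppp1r9a and Zim1) and Airn was not called. Among all 6743 genes that fell, 58.5% were higher and 3.90% lower. Of the 13 tested members with no normal call, 8 were higher (Dlk1, Gnas, Impact, Meg3, Peg10, Rasgrf1, Rian and Slc22a18) and 5 were not called. Among all 7756 genes with no normal call, 25% were higher and 14.9% lower. Nap1l5 and Slc22a18 are in these counts, although they passed the filter on low values only through the Duxbl libraries, where they are high. The median Duxbl difference was -1.13 for members that normally rose, 1.55 for those that fell and 1.32 for those with no call. Levels of 10 oocyte store genes moved with these groups: their sum was 1606 to 3115 CPM in mCherry and 6386 to 9949 CPM in Duxbl embryos at late 2C, and 8 of the 10 were called higher. The summed level of 9 genes of 2-cell activation was 1238 to 3302 CPM in mCherry and 53.9 to 273.8 CPM in Duxbl embryos, with 9 of 9 lower. Their part in the members' differences was not tested. Of 9 cumulus and granulosa markers, 5 could be tested and 2 were higher and 1 lower in Duxbl embryos. Their sum was 10.4 to 24.9 CPM in mCherry embryos, with Inha and Pgr at 0, and 20.4 to 89.0 CPM in Duxbl embryos, with Inha at 0. Of 4 sperm markers tested 1 was higher (Prm2) and 3 lower, and the sum of the 6 was 3.13 to 9.42 CPM in mCherry and 3.545 to 32.5 CPM in Duxbl embryos. The blood marker Hba-a1 was lower (-3.10), and the sum of 2 was 10.1 to 19.9 CPM and 0 to 5.36 CPM. Of 3 oviduct epithelium markers tested 1 was higher (Ovgp1), and the sum of the 5 was 45.3 to 153 CPM and 76.8 to 178 CPM. No sperm, blood or oviduct marker was at 0 in every library of either group. The part of these markers was not tested either.

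**Figure D4:**
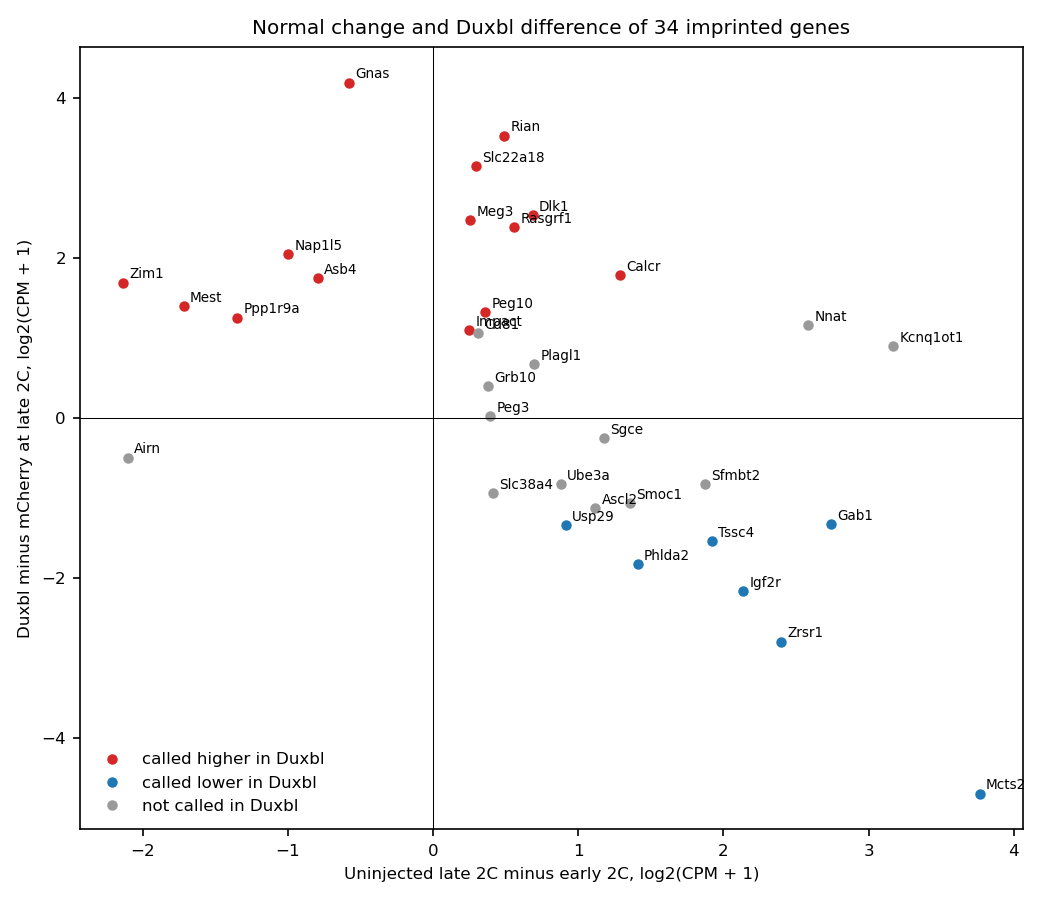
For each of 34 imprinted genes, the change between early and late 2C in uninjected embryos (horizontal) and the difference between Duxbl and mCherry embryos at late 2C (vertical), both in log2(CPM + 1). Red and blue points passed the Duxbl test as higher and lower: the 7 lower genes all lie to the right of 0, and Calcr is the only higher gene among those that normally rose.

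Whether the Duxbl difference changed between early and late 2C was tested directly as a difference of differences. Of 38 members 12 (11 without Igf2) were more positive and 6 more negative at late 2C, or 47.4% against 44.9% of all genes (21.9% more positive and 23.1% more negative). Gnas gave 3.73 (SE 0.52, adjusted p = 5.55e-08), Rian 3.06 (SE 0.71, adjusted p = 0.000333) and Mcts2 -3.68 (SE 0.61, adjusted p = 1.73e-06). Igf2, at 0.154 CPM in Duxbl embryos at early 2C and 2.502 CPM at late 2C, passed the filter on low values only through the Duxbl libraries at late 2C, so that its call is no fair test and its values are a description. Calcr, Impact, Peg10 and Gab1, called at late 2C, were not called here, with adjusted p values of 0.215, 0.151, 0.351 and 0.0908.

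Neighbouring members did not all move alike. In the Dlk1-Meg3 cluster (mm39, chr12:109418749-109628150) all 3 members, Dlk1 on the paternal copy and Meg3 and Rian on the maternal copy, were higher in Duxbl embryos at late 2C, and none was called between early and late 2C in uninjected embryos. Over that time Dlk1 went from 0.0882 to 1.56 CPM (0.69, adjusted p = 0.0701) and Rian from 1.25 to 4.01 CPM, with 13.2 and 8.72 CPM in libraries 4 and 5 at late 2C. Mirg, a further noncoding RNA of that cluster named after its values were seen, was higher too (1.99, 0.70 to 5.86 CPM). In the Peg10 cluster on chromosome 6, Calcr, Peg10, Ppp1r9a and Asb4 were higher, and Sgce, whose start lies 98 bases from that of Peg10, was not called (-0.25). In the Kcnq1 cluster (chr7:142520566-143056887) Slc22a18 was higher while Phlda2, 2210 bases away, and Tssc4 were lower, and Kcnq1ot1, Cd81 and Ascl2 were not called. Slc22a18 passed the filter on low values only through the Duxbl libraries, so that its part in this contrast is a description. Cdkn1c, the cell cycle inhibitor gene of the same cluster and not a member, was lower as well (-2.65, SE 0.44, adjusted p = 2.87e-05). In the Peg3 cluster Usp29 was lower, Zim1 was higher and Peg3, whose gene begins 146 bases from Usp29, was not called. Igf2r and Airn overlap by 28354 bases on opposite strands, and Igf2r was lower while Airn was not called.

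By parental origin, 7 of 13 tested maternally expressed members were higher in Duxbl embryos at late 2C and 3 were lower, with a median difference of 1.26. Of 19 tested paternally expressed members 6 were higher and 4 lower, with a median of 0.03. Both shares called, 76.9% and 52.6%, stand beside 55.9% of all genes, and the 2 groups of members were not tested against each other. The first includes Slc22a18 and the second Nap1l5, whose tests lean on the filter on low values. Parental origin here is the textbook assignment and was not measured.

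The members Nnat, Mcts2, Nap1l5, Kcnq1ot1, Zrsr1, Tssc4, Ndn and Magel2 lie inside another gene, and Mest overlaps the end of Copg2, so the levels of these neighbours were read beside them. Between early and late 2C the hosts Blcap (around Nnat), H13 (around Mcts2), Herc3 (around Nap1l5), Kcnq1 (around Kcnq1ot1) and Commd1 (around Zrsr1) all fell, with differences of -1.52, -1.49, -1.56, -1.62 and -1.70. Nnat, Mcts2, Kcnq1ot1 and Zrsr1 rose over the same time, in the direction opposite to their hosts, while Copg2 fell (-2.23) as Mest did. Igf2r, the neighbour that overlaps Airn and itself a member, rose (2.14). Trpm5, around Tssc4, averaged 0.376 CPM in Duxbl embryos at late 2C and less in the 8 other groups, and Gm32061, around Ndn and Magel2, averaged 0.268 CPM there and less elsewhere, so neither was tested. In Duxbl embryos at late 2C Blcap (1.59), H13 (1.00), Herc3 (1.29) and Kcnq1 (1.47) were higher and Commd1 (0.75) was not called. Copg2 was higher (1.98), as was Mest. Mcts2 went against its host there, whereas Nap1l5 and Herc3 were higher together. The test of Nap1l5 leans on the filter on low values, which it passed only through the Duxbl libraries. Zrsr2, the parent of Zrsr1, was at 46.2 CPM in mCherry and 55.6 CPM in Duxbl embryos (0.25, adjusted p = 0.514), so that Zrsr1 and its parent did not move together. Snhg14, which overlaps Ube3a by 3613 bases on the other strand, was higher (1.45, SE 0.45, adjusted p = 0.00942) where Ube3a was not called.

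Imprinted genes outside the panel were taken as a second list. Of 36 tested, 5 rose and 14 fell between early and late 2C in uninjected embryos, or 52.8% called beside 56.9% of all genes. Of 32 tested 16 were higher and 1 (Cdkn1c) was lower in Duxbl embryos at late 2C, with a median of 0.93, or 53.1% called beside 55.9%. The largest increases at 10 CPM or more were those of Zdbf2 (2.23, 6.88 to 34.2 CPM), Gpr1 (2.22, 15.0 to 54.1 CPM), Th (2.13, 68.5 to 303 CPM) and Bbx (2.01, 11.9 to 49.3 CPM). In uninjected embryos Jade1 (3.94) and Cdkn1c (2.76) had the largest rises and Gpr1 (-4.83) and Copg2 (-2.23) the largest falls.

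The 28 factors that establish or keep imprints also split. Between early and late 2C 6 rose, led by Zfp42 (4.07), Yy1 (3.55), Hdac1 (3.43) and Arid4b (2.92), and 15 fell, led by Ooep (-3.38), Zfp57 (-3.22), Nlrp5 (-2.93) and Tet3 (-2.86), or 75% called beside 56.9% of all genes. In Duxbl embryos at late 2C 11 were higher and 8 lower, or 67.9% called beside 55.9%. Trim28, the corepressor recruited by ZFP57, was at 174 CPM in mCherry and 11.5 CPM in Duxbl embryos (-3.87, SE 0.31, adjusted p = 1.03e-09). Setdb1, the histone methyltransferase of that complex, was lower as well (-1.72, SE 0.29), as were the DNA-binding factors Zfp42 (-2.36) and Yy1 (-2.14). Zfp57 itself was higher (1.41, SE 0.29), at 121 CPM in mCherry and 304 CPM in Duxbl embryos, together with the maternal-effect genes Nlrp2 (1.69), Ooep (1.68) and Nlrp5 (1.54).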

How the data were processed

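The deposited table holds 1 whole number per gene and library. The tools named, per the submitters' processing notes, are DESeq2 1.36.0 and DESeq, featureCounts 2.0.4, Picard 3.0.0, STAR 2.7.10a and Trimmomatic 0.39, with the genome mm39; their roles are not given in the sources used here. The values the authors deposited were treated as a score, since 19 of the 50 libraries skip whole numbers between 1 and 20 and no gene had a maximum below 6 over the libraries, so they appear scaled, rounded and filtered rather than raw counts. In those 19 libraries the spacing of low values gave approximate depths of 13.15 to 24.41 M reads. No pair of libraries was identical. Because counts were not at hand, neither counting intervals nor detection limits were computed, and limma on log values took the place of a count test.

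To obtain CPM, each value was divided by its library's total times trimmed-mean factors (30% of ratios and 5% of abundances trimmed). limma 3.58.1 in R 4.3.3 was fitted to log2(CPM + 1) with a trended, robust variance, 1 mean per group and two-sided tests, over genes that reached a value of 10 in enough libraries to fill the smallest group of the fit. Within-stage comparisons used the 3 groups of the stage, and changes between stages and the difference of differences used all 9 groups. Benjamini-Hochberg adjustment was over all genes tested, and the script was tested on simulated data. Values by library are given for members with a mean of at least 10 CPM in any group and a call in any comparison (21 of 40), and other members by means, ranges and counts or where a result turned on them. Of the other lists, at most 4 genes a direction with the largest differences at 10 CPM or more are named, and all host genes. The members and lists were chosen with earlier results of these data known, and the parents of retrocopies and the overlapping genes were added after seeing the values.

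Library numbers in the titles were checked for pairing by correlating deviations from group means. Every pair exceeded 0.1 for Duxbl against mCherry embryos at late 1C alone (0.183 to 0.310), where the blocked fit gave the same 0 calls. At early 2C 4 of 5 such pairs did (0.0632 to 0.300), and the blocked fit again called 0 members. For mCherry against uninjected embryos 4 of 6 pairs did at late 1C, 5 of 6 at early 2C and 4 of 6 at late 2C. The main fits did not include library number. Promoters came from RefSeq's GRCm38.p6 table. Alternatives covered scaling, pseudocount (0.1 CPM), filter, voom weights, a replicate block, the samples in the fit, the control group and leaving out libraries. Figures were drawn with matplotlib 3.10.9.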

Additional observations from a re-analysis of the deposited data

Results flagged for a closer look

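Of 189 groups of libraries looked at over the named members, 13 held a library far from the others in its group, and chance flags about 1 in 20 groups. Among Duxbl embryos at late 2C, Zrsr1 was high in library 4 (26.5 CPM, the next highest 1.39) and Usp29 was low in library 6 (14.3 CPM, the next lowest 32.4). In other Duxbl groups Calcr was high in library 5 at late 1C (0.470 CPM) and Nnat in library 7 at early 2C (2.72 CPM). In uninjected embryos Kcnq1ot1 was high in library 4 at late 2C (166.5 CPM, the next highest 77.2) and low in library 3 at early 2C (2.82 CPM). At early 2C Impact was low in library 4 (11.2 CPM) and Zrsr1 high in library 5 (9.75 CPM). In mCherry embryos Slc22a18 was high in library 7 at late 1C (0.617 CPM) and library 4 at late 2C (2.47 CPM), Mcts2 was high in library 5 at early 2C (11.6 CPM), Phlda2 was low in library 3 at late 1C (22.4 CPM) and Calcr was low in library 6 at late 2C (0.784 CPM).

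The Duxbl difference was not the same at early and late 2C for 17 members, by the test of the difference of differences. Counting Igf2 as well, 47.4% of the 38 members tested were called, against 44.9% of all genes. It was more positive at late 2C for Gnas (3.73), Rian (3.06), Slc22a18 (2.75), Dlk1 (2.25), Meg3 (2.14), Nap1l5 (2.08), Zim1 (2.04), Rasgrf1 (1.83), Asb4 (1.76), Mest (1.55) and Ppp1r9a (1.31). It was more negative for Mcts2 (-3.68), Zrsr1 (-2.40), Igf2r (-2.17), Phlda2 (-1.68), Tssc4 (-1.59) and Usp29 (-1.17). Igf2 is left out, since it passed the filter on low values only through the Duxbl libraries at late 2C.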

How the results depend on the processing

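No member changed direction with a call under any alternative run. In uninjected embryos a fit of early 2C and late 1C alone called 2 of 29 members, beside 1600 of 18323 genes. The fit of all groups called 0 members. With uninjected embryos as the control 1 of 34 members was called in Duxbl embryos at early 2C, beside 163 of 21180 genes. With mCherry embryos as the control 0 members were called. Leaving out each library in turn, the members called in Duxbl embryos ranged from 0 to 0 at late 1C, 0 to 0 at early 2C, 19 to 22 at late 2C and 18 to 20 for the difference of differences, Igf2 included. The calls over all genes ranged, in the same order, from 3 to 7, 57 to 108, 12117 to 12839 and 12439 to 13044. Across all alternatives 18 of 21 calls at late 2C were kept each time, Gab1, Impact and Peg10 being the exceptions, and 17 of 21 calls between early and late 2C (not Asb4, Ascl2, Calcr and Ube3a). For the difference of differences 16 of 18 were kept (not Dlk1, at an adjusted p of 0.0627 with a pseudocount of 0.1 CPM and 0.200 with voom weights, and Usp29, at 0.0529 without Duxbl library 6). With the library number as a replicate block, 25 of 34 members were called in Duxbl embryos at late 2C, beside 13147 of 23052 genes. Between early and late 2C the block gave 22 of 38 members and 16713 of 28808 genes. For the difference of differences it gave 19 of 38 members and 13337 of 28808 genes. The deviations of same-numbered Duxbl and mCherry libraries at late 2C correlated at -0.00522 to 0.0832, which does not show pairing there, although libraries 4 and 5 stood apart at every stage. A fit of all 9 groups called 28 of 38 members in Duxbl embryos at late 2C, beside 17081 of 28808 genes. Over all genes, changes between late 1C and early 2C numbered 844, 1600 in the fit of those 2 groups and 388 without libraries 4 and 5, an alternative chosen after seeing the data. Duxbl calls over all genes went from 4 to 1 at late 1C and from 89 to 41 at early 2C without those libraries. Scaled values limit members below about 1 CPM, where 1 deposited unit is a large part of the level.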
